A study of Homo sapiens with 12 samples.

Results

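Transcripts of 8 enzymes of serine synthesis and folate one-carbon metabolism were examined in HepG2 cells, an established human hepatoma line. The enzymes were PHGDH, PSAT1, PSPH, SHMT1, SHMT2, MTHFD1, MTHFD2 and MTHFD1L, found by symbol among the 35984 genes of the count table. All 8 passed the filter on low counts that left 16118 genes for testing. They were chosen by measured values, with the lower levels of PHGDH and PSAT1 under TNFα in control cells already known. Values of that contrast are therefore given as a description, without a p-value.

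The study held 12 libraries of total RNA, 3 in each of 4 groups. Control cells (CTL) carried stably integrated control shRNA cassettes, and knock-down cells (DKD) carried cassettes against macroH2A1 and macroH2A2, which are variant forms of histone H2A that carry an extra domain, all delivered by retrovirus in pRetroSUPER vectors. Both kinds of cells spent a night in 0.5% serum and were then kept for 24 hours with 20 ng/mL of TNFα, a cytokine of inflammation, or with its solvent alone (PBS with albumin). Separate cultures behind the libraries of a group are not stated, so the p-values cover the spread among libraries and no more, and that spread may be technical. It is also not stated whether each line was a pool or a clone, so a difference between the lines cannot be told apart from an effect of the knock-down.

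Library totals ran from 30955080 to 42094144 counts. MACROH2A1 in the knock-down was at 19.6% of control without TNFα and 20.8% with it, and MACROH2A2 at 8.83% and 8.55%. The 7 hepatocyte and hepatoma markers summed to 16239.5 to 37431 CPM, the counts scaled by library size with TMM factors, against at most 1.57 CPM for 5 fibroblast, 14.8 CPM for 5 immune and 2.49 CPM for 3 endothelial markers. THY1 and CD3E were at 0 in every library, and most of the immune sum was CD68, at 4.50 to 14.4 CPM. Among the hepatocyte and hepatoma markers ALB ran from 213 to 8437 CPM, AFP from 4496 to 11859 CPM and APOB from 5915 to 10828 CPM. HNF4A ran only from 236 to 372 CPM and TTR from 99.4 to 189 CPM. The hepatocyte and hepatoma sum, also where it is given below, thus follows a few abundant genes and need not hold for each marker. Replicate 1 of both knock-down groups stood apart: on the first principal component, with 33.0% of the variance, these 2 libraries lay at -83.7 (untreated) and -53.9 (TNFα), below the range of -18.2 to 41.5 that held the remaining 10. Values from replicates 2 and 3 only are therefore given beside the main results on the knock-down cells. In these bulk libraries, fewer cells with a transcript and less RNA per cell cannot be told apart.

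Serine synthesis starts from a glycolytic intermediate. PHGDH oxidises it in the committing step, PSAT1 transfers an amino group from glutamate, and PSPH removes the phosphate to release serine. SHMT1 in the cytosol and SHMT2 in mitochondria then cleave serine to glycine and pass its carbon to tetrahydrofolate. MTHFD2 and MTHFD1L carry that carbon to formate inside mitochondria, and MTHFD1 takes formate up again in the cytosol for purine and thymidylate synthesis and for methyl groups. Liver cells combine these reactions with an active methionine cycle. ATF4, a transcription factor of the amino acid and stress response, is known to drive several of the 8 genes.

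The 8 genes are protein coding and lie on 8 chromosomes (GENCODE 29 models on GRCh38). PHGDH is at chr1:119648411-119744226 on the plus strand, PSAT1 at chr9:78297143-78330093 on the plus strand, and PSPH at chr7:56011051-56051604 on the minus strand. SHMT1 is at chr17:18327860-18363563 on the minus strand and SHMT2 at chr12:57229327-57234935 on the plus strand. MTHFD1 is at chr14:64388031-64463457, MTHFD2 at chr2:74198562-74217565 and MTHFD1L at chr6:150865549-151101887, all on the plus strand. PSPH has a copy on the same chromosome, the unprocessed pseudogene PSPHP1 at chr7:55764797-55773288. It received 196 to 435 counts per library, 4.62% to 5.75% of the PSPH count. Reads of PSPH and PSPHP1 may be divided unevenly by the counting, so PSPH values carry this uncertainty. Adding the PSPHP1 counts to PSPH changed no PSPH call, with or without the replicate block. Each of the other 13 listed pseudogene copies of these genes had at most 22 counts in any library.

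Promoter windows of RefSeq (GRCh38.p14, from 250 bases before to 50 after a start) were matched for 6 of the 8 genes, in 9 windows. The windows of PHGDH, PSAT1 and SHMT1 are shown because the levels of these 3 genes moved most alike over the libraries, and that of MTHFD1L because it held both motifs searched. They are chr1:119711684-119711983 (plus strand), chr9:78296875-78297174 (plus), chr17:18363501-18363800 (minus) and chr6:150866236-150866535 (plus). Capitals mark the motifs TGATGNAA, part of the element that ATF4 binds with C/EBP proteins, and CACGTG, the E-box. Both strands were searched, and the matches in the MTHFD1L window do not overlap.
PHGDH: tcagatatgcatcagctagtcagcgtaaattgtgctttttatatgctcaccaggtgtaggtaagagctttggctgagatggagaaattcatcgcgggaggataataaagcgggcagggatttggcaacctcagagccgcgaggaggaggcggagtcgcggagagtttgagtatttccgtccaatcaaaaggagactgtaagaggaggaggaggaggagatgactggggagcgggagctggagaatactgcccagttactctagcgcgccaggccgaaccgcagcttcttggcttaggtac
PSAT1: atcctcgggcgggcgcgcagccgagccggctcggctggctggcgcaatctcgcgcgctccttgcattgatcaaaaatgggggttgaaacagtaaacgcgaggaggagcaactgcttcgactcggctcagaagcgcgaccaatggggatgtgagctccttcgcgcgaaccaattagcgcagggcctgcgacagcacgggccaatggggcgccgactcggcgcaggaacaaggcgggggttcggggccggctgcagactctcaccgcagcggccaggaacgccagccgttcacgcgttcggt
SHMT1: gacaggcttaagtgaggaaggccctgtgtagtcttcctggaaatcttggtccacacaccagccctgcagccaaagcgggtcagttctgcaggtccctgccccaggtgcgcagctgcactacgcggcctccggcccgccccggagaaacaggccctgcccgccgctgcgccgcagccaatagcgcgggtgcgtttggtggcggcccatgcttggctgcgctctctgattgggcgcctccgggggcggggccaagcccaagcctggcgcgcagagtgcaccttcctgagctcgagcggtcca
MTHFD1L: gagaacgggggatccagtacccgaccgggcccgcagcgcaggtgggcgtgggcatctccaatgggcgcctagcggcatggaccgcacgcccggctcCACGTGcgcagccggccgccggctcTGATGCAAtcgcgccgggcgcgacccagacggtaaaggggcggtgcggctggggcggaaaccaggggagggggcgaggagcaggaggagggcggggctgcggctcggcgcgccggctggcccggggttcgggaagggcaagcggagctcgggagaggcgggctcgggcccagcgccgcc

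TGATGNAA occurred in 3.62% and CACGTG in 7.26% of 35116 promoter windows of this length. In the MTHFD1L window shown CACGTG began 154 bases and TGATGCAA 129 bases before the start. A further 2 windows of MTHFD1L that overlap this one held the same pair. The remaining MTHFD1L window, at chr6:151006758-151007057, held neither motif. MTHFD1 had CACGTG 15 bases before its start. The windows of PHGDH, PSAT1, SHMT1 and MTHFD2 held neither string of letters. These matches describe the letters only.

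Levels between genes were compared as CPM per kb of the principal transcript in untreated control cells. PSAT1 was highest at 197 ± 2.37 (SD, n = 3), rank 234 of 13634 genes with a length. SHMT2 (110 ± 1.96) and PHGDH (100.4 ± 8.24) followed, and the PHGDH libraries, from 91.8 to 108.2, just overlapped those of SHMT2, from 108.1 to 112. MTHFD2 stood at 74.3 ± 4.03. PSPH (64.9 ± 7.33) and MTHFD1 (64.9 ± 5.09) did not differ beyond their spread. SHMT1 at 27.3 ± 0.776 and MTHFD1L at 20.4 ± 1.40 were the lowest. All 8 thus ranked within the top 25.2% of genes per kb, and 6 within the top 6.76%. Per kb of coding sequence MTHFD2, which has a long untranslated part, moved up to 315, behind PSAT1 at 389, so the order of the middle genes depends on the length used.

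TNFα in control cells was the contrast in which the 8 genes had been selected. PHGDH was at 237, 261 and 279.8 CPM in untreated control cells (259 ± 21.3, SD, n = 3), and at 151, 155 and 174 CPM with TNFα (160.0 ± 12.4). The ranges did not overlap, and the log2 fold change was -0.70 (SE 0.10). The share of all genes without overlap was not counted for any contrast, so such ranges are a description here and below. PSAT1 was at 426, 436 and 434 CPM untreated (432 ± 5.19), and at 300.5, 317 and 297 CPM with TNFα (305 ± 10.7), a log2 fold change of -0.50 (SE 0.10). The untreated PSAT1 libraries lay close together, well above all 3 treated ones. The last enzyme of the branch, PSPH, overlapped between the groups, with 159, 128 and 137 CPM untreated against 141, 129 and 126 CPM with TNFα.

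All 8 genes had a negative log2 fold change in this contrast, with a median of -0.28 beside 0.000836 over all genes tested. Those of SHMT1 (-0.32), MTHFD1 (-0.31), MTHFD2 (-0.25) and SHMT2 (-0.18) lay between PSAT1 and PSPH (-0.10), and that of MTHFD1L was -0.07. By edgeR's quasi-likelihood test, 2 of 8 were called lower (PHGDH and PSAT1) and 0 higher, where 0.726% of all genes tested were called lower and 1.90% higher. With the replicate number as a block, 3 of 8 were called lower, SHMT1 being added, where 4.70% of all genes were called lower and 7.94% higher. The PSAT1 call did not hold without any one of the 6 control libraries. In those settings 149 of 16443 to 284 of 16451 genes were called, beside 306 higher and 117 lower of 16118 in the main fit. Since the genes were selected on this contrast, nothing is read from these counts. The summed hepatocyte and hepatoma markers were lower with TNFα too, at 16239.5 to 18265 CPM against 19631 to 21565 CPM, and their part in these values was not tested.

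**Figure D1:**
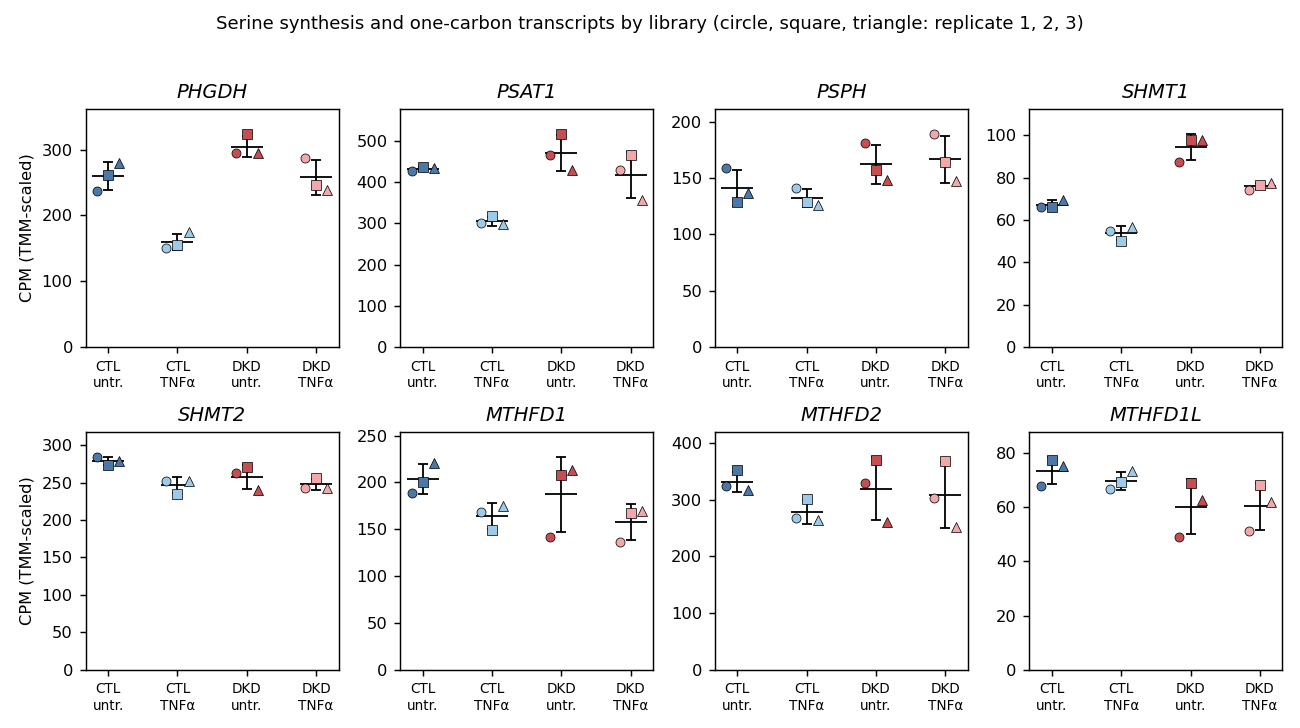
Level of each of the 8 transcripts in TMM-scaled CPM (vertical axis, from 0) in the 4 groups. Points are single libraries (circle, square and triangle for replicates 1, 2 and 3), and bars are mean ± SD (n = 3). PHGDH and PSAT1 are lowest in control cells with TNFα, and SHMT1 is higher in every knock-down library than in any control library. The replicate 1 circle is lowest in all 4 groups for MTHFD1L, and in both knock-down groups and untreated control cells for MTHFD1.

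TNFα in knock-down cells used none of the libraries of that contrast, apart from the shared estimate of the spread, and here edgeR called none of the 8. PHGDH was at 294, 323 and 295 CPM in untreated knock-down cells (304 ± 16.3) and at 287, 246 and 239 CPM with TNFα (257 ± 26.0). The ranges did not overlap, but the replicate 1 library stayed close to the untreated ones. Its log2 fold change was -0.24 (SE 0.10, 95% interval -0.46 to -0.02, adjusted p = 0.38 by edgeR's quasi-likelihood test). With replicates 2 and 3 only it was -0.36 (adjusted p = 0.0340, edgeR), and over all alternatives the adjusted p of PHGDH ran from 0.0340 to 0.727. PSAT1 was at 465, 516 and 429 CPM untreated (470.2 ± 43.5) and at 429, 465 and 357 CPM with TNFα (417 ± 55.4). Its groups overlapped, although each TNFα library was below the untreated library of the same number, and the log2 fold change was -0.17 (SE 0.10, adjusted p = 0.65 by edgeR), or -0.21 with replicates 2 and 3 only (adjusted p = 0.37). PSPH overlapped in full, with 181, 157 and 148 CPM untreated and 189, 164 and 147 CPM with TNFα.

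SHMT1, the cytosolic enzyme, had like log2 differences in both lines. It went from 66.1, 66.3 and 69.5 CPM to 54.7, 50.0 and 56.6 CPM in control cells, and from 87.3, 97.9 and 97.9 CPM to 74.3, 76.5 and 77.3 CPM in knock-down cells. In each line all 3 treated libraries were below all 3 untreated ones. The control-line values belong to the contrast on which the genes were selected, so the likeness of the lines is a description. The log2 fold change in knock-down cells was -0.31 (SE 0.08), with an adjusted p of 0.0785 by edgeR, and with the replicate block it passed the threshold (adjusted p = 0.0137). It passed too with replicates 2 and 3 only, at -0.36 (adjusted p = 0.0273, edgeR). Its adjusted p over all alternatives ran from 0.00334 to 0.397. SHMT2, the mitochondrial enzyme, overlapped in knock-down cells, at 262, 270.45 and 239.7 CPM untreated and 243, 257 and 243 CPM with TNFα (log2 fold change -0.06, 95% interval -0.21 to 0.10).

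By edgeR 0 of 8 genes were called in knock-down cells, where 1.54% of all genes tested were called higher and 0.254% lower. At an unadjusted p under 0.05 there were 2 of 8 (PHGDH and SHMT1), beside 10.1% of all genes. DESeq2 called 1, SHMT1, and 3.92% of the genes to which it gave an adjusted p. With the block 1 of 8 was called lower, where 5.55% of all genes were called higher and 2.13% lower. The median log2 fold change of the 8 was -0.11, beside -0.00815 over all genes tested, and 6 of the 8 were negative. Lower calls were made for 2 of 8 (PHGDH and SHMT1) with replicates 2 and 3 only, where 8.43% of all genes were called. Hepatocyte and hepatoma markers summed to 18990 to 25317 CPM with TNFα and 24587 to 37431 CPM without, ranges that overlapped, and their part in these values was not tested.

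The interaction subtracts the TNFα difference of control cells from that of knock-down cells. It contains the contrast on which the genes were selected and shares all its libraries. Its estimates were positive for all 8 genes, with a median of 0.13 beside -0.00111 over all genes tested. PHGDH had 0.46 (SE 0.13) and PSAT1 0.33 (SE 0.14) on the log2 scale, SHMT1 0.01 (SE 0.11, 95% interval -0.24 to 0.26). With edgeR 0 of 8 were called and 0 of all genes tested (0% higher and 0% lower), with or without the block. At an unadjusted p under 0.05 there were 2 of 8, PHGDH and PSAT1, and 184 of all genes (1.14%). These 2 are the genes whose low levels in control cells with TNFα were already known, so nothing is read from this count. DESeq2 called 0 of 8 and 5 of all genes (0.0196%). A smaller TNFα difference in knock-down cells was thus not shown for any of the 8 genes.

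The knock-down was compared with control cells first without TNFα. These untreated control libraries also enter the contrast on which the genes were selected. For SHMT1 all 3 knock-down libraries, at 87.3 to 97.9 CPM (94.4 ± 6.12), were above the control libraries, at 66.1 to 69.5 CPM (67.3 ± 1.91). The log2 fold change was 0.49 (SE 0.08, adjusted p = 0.00364 by edgeR), a level of 140.2% of control, and with replicates 2 and 3 only it was 0.53 (adjusted p = 0.00348). PHGDH (0.23, SE 0.10, adjusted p = 0.24 by edgeR) and PSAT1 (0.12, SE 0.10, adjusted p = 0.61) did not pass the test. PHGDH was higher in all 3 knock-down libraries than in any control library, while PSAT1 overlapped. Their values with replicates 2 and 3 only were 0.20 and 0.13, and neither was called. SHMT2 had a log2 fold change of -0.12 (95% interval -0.27 to 0.04, adjusted p = 0.43 by edgeR), opposite in sign to its cytosolic counterpart. Its knock-down libraries, at 239.7 to 270.45 CPM, were all below its control libraries, at 274 to 284 CPM. How many of all genes separated in this way was not counted, so nothing is read from these ranges.

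By edgeR 1 of 8 genes was called higher and 0 lower without TNFα, where 3.13% of all genes tested were called higher and 1.86% lower. At an unadjusted p under 0.05 there were 2 of 8, SHMT1 and PHGDH, beside 17.02% of all genes, and the median of the 8 was 0.04 beside 0.01 over all genes. With the block 2 were called higher and 1 lower, where the shares of all genes were 9.17% and 7.31%. The added genes were PSPH, at 0.20 (adjusted p = 0.0498 with the block, 0.45 without), and MTHFD1L, at -0.30 (adjusted p = 0.0318 with the block, 0.32 without). SHMT1 was the 1 gene of the 8 called with replicates 2 and 3 only, where 12.3% of all genes were called. In a model of the untreated groups alone the adjusted p of SHMT1 was 0.0520, so that its call was lost, and over all its alternatives it ran from 1.72e-07 to 0.0520. That model called 332 of 15456 genes, beside 504 higher and 299 lower of 16118 in the main fit. The summed hepatocyte and hepatoma markers were also higher in untreated knock-down cells, at 24587 to 37431 CPM against 19631 to 21565 CPM in control cells, and their part in the SHMT1 result was not tested.

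With TNFα present, PHGDH was at 257 ± 26.0 CPM in knock-down cells against 160.0 ± 12.4 CPM in control cells, a log2 difference of 0.69 (SE 0.10). PSAT1 stood at 417 ± 55.4 against 305 ± 10.7 CPM, a difference of 0.45 (SE 0.10). All 3 knock-down libraries were above all 3 control libraries for both genes. The control libraries with TNFα are those whose low levels selected these genes, so no p is given for any of the 8 in this contrast. SHMT1 was at 53.8 ± 3.40 CPM in the control line and at 76.0 ± 1.52 CPM in the knock-down line. Its log2 difference of 0.50 (SE 0.08) was close to that without TNFα. PSPH was at 189, 164 and 147 CPM in knock-down and 141, 129 and 126 CPM in control cells, ranges that did not overlap. Its log2 difference was 0.34 (SE 0.12). The log2 differences with replicates 2 and 3 only were 0.56 for PHGDH, 0.42 for PSAT1, 0.53 for SHMT1 and 0.29 for PSPH.

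By edgeR 3 of 8 genes (PHGDH, PSAT1 and SHMT1) were called higher with TNFα and 0 lower, where 3.94% of all genes tested were called higher and 2.30% lower. With the block 4 of 8 were called higher, PSPH being added, where 10.6% of all genes were called higher and 8.79% lower. Replicates 2 and 3 alone gave 3 of 8 (PHGDH, SHMT1 and PSPH), where 14.7% of all genes were called. The PSAT1 call was also lost without any one of the control TNFα libraries, without knock-down TNFα replicate 1 or 2, and in a model of the 2 groups alone. In those settings 572 of 16431 to 812 of 15556 genes were called, beside 635 higher and 370 lower of 16118 in the main fit. Since the control libraries with TNFα took part in selecting the genes, nothing is read from these counts. The median of the 8 was 0.24 beside 0.00155 over all genes tested. SHMT2 had a log2 fold change of 0.01 (95% interval -0.15 to 0.16). Hepatocyte and hepatoma markers summed to 18990 to 25317 CPM in knock-down cells against 16239.5 to 18265 CPM in control cells, and their part was not tested.

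**Figure D2:**
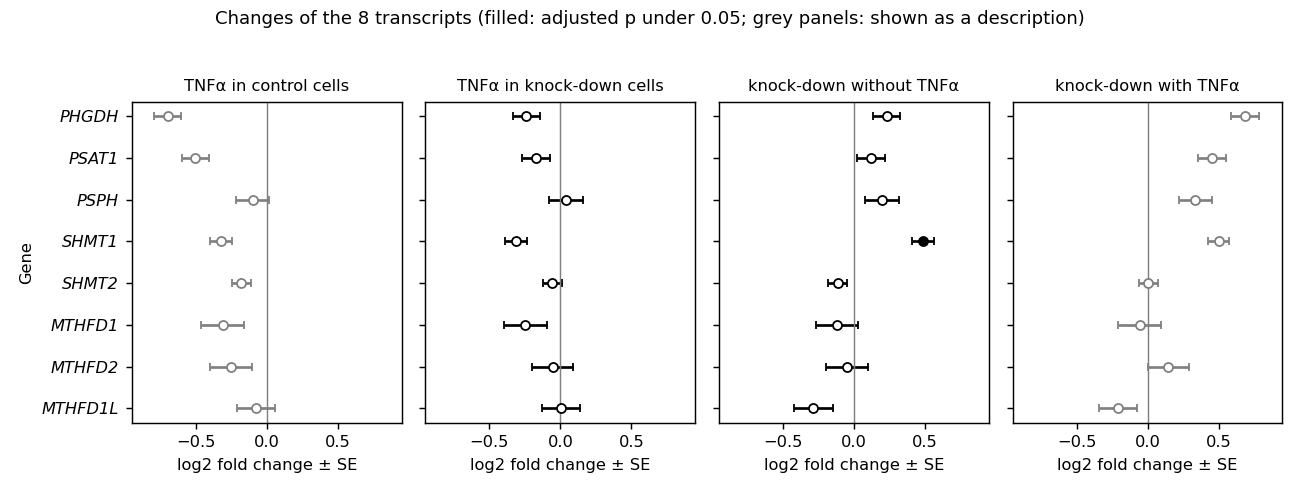
Log2 fold change of each transcript (horizontal axis) with its SE, in 4 contrasts of the 12 libraries. Filled points are called at an adjusted p under 0.05 by edgeR, and both grey panels, which use the control libraries with TNFα that selected the genes, are a description without calls. In the black panels SHMT1 is the 1 gene called, at 0.49 without TNFα, and SHMT2 stays between -0.18 and 0.01 in all panels. The panel of the knock-down without TNFα uses the untreated control libraries, which also took part in the selection.

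The SHMT1 count was compared with the SHMT2 count of the same library, a ratio that does not depend on the scaling between libraries. SHMT1 made 23.3%, 24.2% and 25.0% of the SHMT2 count in untreated control cells, and 21.7%, 21.3% and 22.4% with TNFα. In knock-down cells it made 33.3%, 36.2% and 40.8% untreated, and 30.5%, 29.8% and 31.9% with TNFα. The lowest knock-down library was above the highest control library. With TNFα all 3 libraries were below the untreated ones in each line. The ratio restates the counts of SHMT1 and SHMT2 in the same libraries, so it adds no separate evidence. The control libraries are those of the contrast on which the genes were selected. These values are therefore a description, and whether the pair changed unequally was not tested.

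**Figure D3:**
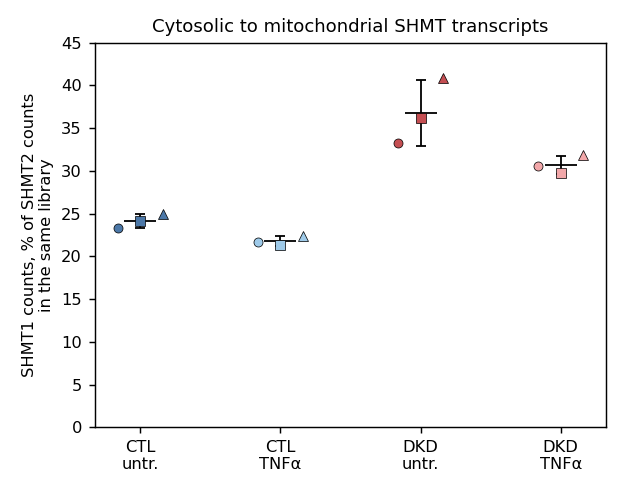
SHMT1 counts as a percentage of SHMT2 counts in the same library (vertical axis, from 0) in the 4 groups, with mean ± SD (n = 3). Symbols are replicates 1 (circle), 2 (square) and 3 (triangle). Control libraries lie at 21.3% to 25.0% and knock-down libraries at 29.8% to 40.8%.

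The PHGDH count was set against the PSAT1 count, the first enzyme against the second, in the same way. It was 60.0% ± 4.43 (SD, n = 3) of the PSAT1 count in untreated control cells, 52.5% ± 5.26 with TNFα, 64.9% ± 3.39 in untreated knock-down cells and 62.3% ± 8.15 with TNFα. These ranges overlapped between all pairs of groups but one: control cells with TNFα, at 48.8% to 58.6%, lay below untreated knock-down cells, at 62.6% to 68.8%.

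MTHFD1, MTHFD2 and MTHFD1L, which follow the SHMT step, were not called by edgeR in any contrast over all libraries and without the block. MTHFD1, the cytosolic enzyme of formate use, was at 189, 201 and 220.5 CPM in untreated control cells (203 ± 15.97) and 168, 149 and 175 CPM with TNFα (164 ± 13.6). In knock-down cells it was at 141, 207 and 213 CPM untreated (187 ± 39.8) and 136, 168 and 169 CPM with TNFα (158 ± 18.8). The replicate 1 library was the lowest of its group in both knock-down groups and in untreated control cells. In knock-down cells the log2 fold change with TNFα was -0.25 (adjusted p = 0.70 by edgeR) with all libraries and -0.33 (adjusted p = 0.0610) with replicates 2 and 3 only. The knock-down difference of MTHFD1 was -0.12 without TNFα (-0.06 with it), and with replicates 2 and 3 only it was 0.00124 (0.0589 with it), so its sign turned.

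MTHFD1L, the mitochondrial formate synthase, was at 67.7, 77.3 and 75.2 CPM in untreated control cells and 66.7, 69.3 and 73.2 CPM with TNFα. In knock-down cells it was at 49.1, 68.8 and 62.7 CPM untreated and 51.1, 68.1 and 61.8 CPM with TNFα. Each knock-down library was below the control library of the same number, and replicate 1 was the lowest in all 4 groups. Its knock-down difference was -0.29 without TNFα (SE 0.13) and -0.21 with it (SE 0.13), and with replicates 2 and 3 only -0.21 and -0.13. MTHFD2, the mitochondrial dehydrogenase, varied with the replicate number. It was at 329, 369.7 and 260.2 CPM in untreated knock-down cells and 303, 368 and 252 CPM with TNFα. Control cells were at 324, 352 and 318 CPM and, with TNFα, 268, 302 and 264 CPM. In all 4 groups its replicate 3 library was the lowest and its replicate 2 library the highest.

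**Figure D4:**
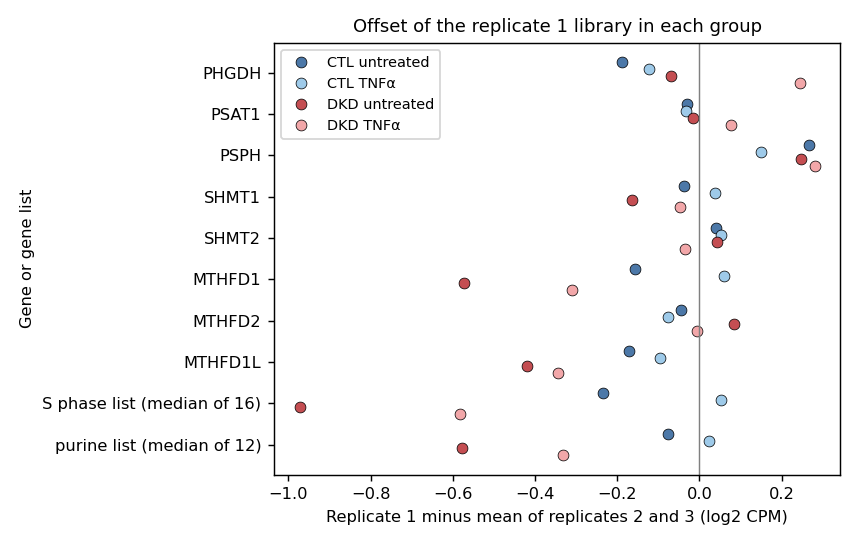
Log2 CPM of the replicate 1 library minus the mean of replicates 2 and 3 (horizontal axis) for each of the 8 transcripts and for the medians of 2 gene lists, in each group (colours). In untreated knock-down cells MTHFD1 (-0.57), MTHFD1L (-0.42), the purine list (-0.58) and the S phase list (-0.97) lie far below 0, and PSPH lies above 0 in all 4 groups.

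The offset of the replicate 1 library differed between the 8 genes. In untreated and TNFα-treated knock-down cells it was -0.57 and -0.31 for MTHFD1, and -0.42 and -0.34 for MTHFD1L, on the log2 scale. PSPH had the opposite sign, 0.25 and 0.28, but it had this offset in control cells as well, at 0.27 and 0.15. In untreated and TNFα-treated control cells the offset was -0.16 and 0.06 for MTHFD1, and -0.17 and -0.10 for MTHFD1L. SHMT2 stayed between -0.04 and 0.05 in all groups. The median of 16 genes of S phase and proliferation was -0.97 and -0.58 in the knock-down libraries, against -0.23 and 0.05 in control cells, and that of 12 purine synthesis genes -0.58 and -0.33. The part of these shifts in the MTHFD1 and MTHFD1L values was not tested.

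Over the 12 libraries the log2 CPM of PHGDH and PSAT1 had a Pearson r of 0.92, PHGDH and SHMT1 0.89, and PSAT1 and SHMT1 0.80. SHMT2 correlated weakly with SHMT1 (0.12), and MTHFD1L negatively with PSPH (-0.83), SHMT1 (-0.41), PHGDH (-0.32) and PSAT1 (-0.22). These values describe libraries that share 4 group means and the replicate 1 offsets. Among 10653 other genes with a mean log2 CPM of at least 2, those most like SHMT1 were MAT1A (r = 0.98), TSPAN3 and STRADB. PHGDH had ERICH4 (0.97), GPD1 and APOA1, PSAT1 had SLC35D1 (0.95), ARHGAP18 and NADK2, and PSPH had LRP11 (0.98), ABCC11 and HNF4G. Those of MTHFD1 were POLE3 (0.99), MCM3 and RRM1, those of MTHFD1L PACRGL (0.99) and EEF2K. MTHFD2 had ASNS (0.90), CEP135 and MRPL42, and SHMT2 had MED30 (0.87), IMPDH2 and RPLP0.

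The neighbouring pathways were counted by lists, in 4 contrasts: the TNFα difference of the control line, that of the knock-down line, the knock-down without and the knock-down with TNFα. Counts and median log2 fold changes are given in that order, and the medians and called shares over all genes by edgeR, with and without the block, are those given above. Of all genes tested 13.9%, 10.1%, 17.02% and 18.4% had an unadjusted p under 0.05. DESeq2 called 6.88%, 3.92%, 9.03% and 11.4% of the genes to which it gave an adjusted p, and with replicates 2 and 3 only edgeR called 13.8%, 8.43%, 12.3% and 14.7%. The genes named as called were called in the same direction with replicates 2 and 3 only. The lists were chosen with earlier results of these data known, and the genes named are called ones of smallest p. Their p-values are therefore given as a description.

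Of the glycine cleavage system and mitochondrial serine carriers 6 of 6 were tested, with 1 called higher by edgeR in each contrast and medians of -0.14, -0.04, 0.05 and 0.17. DESeq2 called 2, 1, 2 and 1, and the block 2, 1, 3 and 2. GLDC, which breaks down glycine, was higher in the knock-down line, at 245 ± 23.7 against 136 ± 5.05 CPM without TNFα. With TNFα it was at 234 ± 5.97 against 112 ± 0.897 CPM. Its log2 fold changes were 0.85 (SE 0.08) and 1.06 (SE 0.08), with adjusted p of 0.000156 and 2.72e-05 by edgeR, larger than those of SHMT1. The GLDC changes were 0.94 and 1.05 with replicates 2 and 3 only. SFXN3, of the sideroflexin family of mitochondrial serine carriers, rose with TNFα, by 0.71 in control cells (adjusted p = 0.0122, edgeR) and 0.94 in knock-down cells (adjusted p = 0.00295).

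Of 15 genes of the methionine cycle, transsulfuration and choline oxidation, 3, 0, 2 and 3 were called by edgeR. TNFα in control cells lowered MAT1A, which makes S-adenosylmethionine in liver cells (-0.92), BHMT, which remethylates homocysteine with betaine (-1.10), and AHCY, which hydrolyses S-adenosylhomocysteine (-0.28). In knock-down cells 3 of 15 had an unadjusted p under 0.05, and DESeq2 called 1. MAT1A was higher in the knock-down line, at 258 ± 41.97 against 107 ± 12.5 CPM without TNFα. With TNFα it was at 160.4 ± 13.0 against 56.9 ± 13.3 CPM. Its log2 fold changes were 1.27 and 1.49 (adjusted p 0.00176 and 0.000611 by edgeR). The MAT1A changes were 1.42 and 1.61 with replicates 2 and 3 only. SARDH, which oxidises sarcosine, was higher in knock-down cells by 0.72 and 0.94, and BHMT by 1.21 with TNFα. With replicates 2 and 3 only these values were 0.60, 0.78 and 1.09. With the block 5, 2, 7 and 7 of the 15 were called, of which 5 and 6 were higher in the knock-down without and with TNFα. The list medians were -0.25, -0.15, 0.15 and 0.22.

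Of 18 folate enzymes and carriers 0, 0, 0 and 1 were called by edgeR, with 4, 1, 4 and 5 at an unadjusted p under 0.05. DESeq2 called 0, 1, 1 and 1, and the block 4, 1, 5 and 6. The medians were -0.08, -0.06, 0.04 and 0.04. The called gene was ALDH1L2, the mitochondrial enzyme that oxidises formyl-tetrahydrofolate. With TNFα it was at 29.01 ± 5.68 CPM in knock-down against 16.95 ± 2.94 CPM in control cells (0.77, SE 0.19, adjusted p = 0.0322 by edgeR). Of 16 genes of serine and glycine uptake and use 0, 0, 2 and 1 were called, with 3, 2, 5 and 4 at an unadjusted p under 0.05. DESeq2 called 2, 0, 3 and 1, and the block 3, 1, 6 and 4. The medians were -0.13, -0.04, -0.08 and -0.05. SLC1A5 is a carrier of neutral amino acids, and SPTLC2 a subunit of the enzyme that joins serine to a fatty acid. They were lower by 0.36 and 0.32 on the log2 scale in knock-down cells without TNFα (adjusted p of 0.0469 and 0.0478 by edgeR). GLYCTK, glycerate kinase, was higher by 0.37 in knock-down cells with TNFα (adjusted p = 0.0414 by edgeR). Of 12 purine synthesis genes, 2 of which are also in the folate list, edgeR called 0 in every contrast, with 3, 1, 2 and 3 at an unadjusted p under 0.05. DESeq2 called 1, 0, 0 and 0, and the block 1, 1, 3 and 3. The medians were -0.19, -0.10, -0.16 and -0.07, with 11 of the 12 negative in each contrast.

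ATF4 and its other targets gave 28 tested genes of 30 listed, with 0, 0, 2 and 2 called by edgeR and 1, 2, 5 and 4 at an unadjusted p under 0.05. DESeq2 called 1, 0, 2 and 2, and the block 2, 2, 5 and 4. Their medians were -0.04, 0.02, -0.00031 and 0.06. The 2 called genes differed in opposite directions between the lines. SLC7A1, a carrier of cationic amino acids, was lower in knock-down cells by 1.01 without TNFα and by 0.91 with it. VLDLR, a lipoprotein receptor, was higher by 1.28 and 1.42. Of 6 other regulators 0, 0, 1 and 1 were called, with 1, 1, 2 and 2 at an unadjusted p under 0.05. DESeq2 called 1, 0, 1 and 1, and the block 2 in each contrast. NFE2L2, which encodes the oxidative stress factor NRF2, was higher in knock-down cells by 0.67 and 0.68 (SE 0.07 each), with adjusted p of 0.000300 and 0.000237 by edgeR. Of 16 S phase and proliferation genes 0, 0, 1 and 0 were called by edgeR, with 1 of 16 at an unadjusted p under 0.05 in each contrast, a smaller share than over all genes. DESeq2 called 0, 0, 1 and 1, and the block 0, 0, 2 and 2. MKI67, a proliferation marker, was lower by 0.73 in knock-down cells without TNFα (adjusted p = 0.0214 by edgeR). The S phase medians were -0.38, -0.19, -0.17 and 0.04. With replicates 2 and 3 only, 10 and 5 of the 16 were called under TNFα, in control and knock-down cells, where 13.8% and 8.43% of all genes were called. In the knock-down 1 and 2 were called, where the shares were 12.3% and 14.7%.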

How the data were processed

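RNA was sequenced from 12 HepG2 libraries, 3 per group, grouped by their titles. The deposited table holds estimated counts for each gene symbol, given by the authors as whole numbers. The tools named per the submitters' processing notes are Salmon 0.14.0, CASAVA 1.7 and DESeq2, and the genome is GRCh38. The annotation is not given in the sources used here, nor how transcripts became genes. A deposited normalised table was not used.

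Counts were tested with edgeR 4.0.16 in R 4.3.3 (TMM factors, filterByExpr with a minimum count of 10 and total of 15, glmQLFit and glmQLFTest) with 1 mean per group over all 12 libraries, 8 residual degrees of freedom and Benjamini-Hochberg adjustment over 16118 genes. Genes were called at an adjusted p under 0.05. SE is the absolute log2 fold change divided by the root of F. The 95% intervals use this SE and the t quantile at 8 degrees of freedom. The p-values use edgeR's moderated degrees of freedom, so interval and p need not match exactly. The edgeR step was also run on simulated counts that held no replicate effect and were changed only in untreated knock-down cells. That run does not bear on the replicate 1 offset. CPM is TMM-scaled. Levels per kb used GENCODE 29 transcripts, because the RefSeq table at hand gives gene spans only. Protein sequences were not used here, so identity between paralogs was not computed.

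The genes, the lists and the rule for named genes were chosen with earlier results of these data known. The rule takes the 8 genes, up to 3 called genes of smallest p per list and contrast, both macroH2A genes, and the 3 genes most like each of the 8, of which 1 is not reported here. Alternatives were a replicate block, DESeq2 1.42.0, DESeq2 size factors, other filters, each library left out, replicates 2 and 3 only, and only the groups compared. PSPH with PSPHP1 (also with the block), and list counts by DESeq2 or without replicate 1, were added after seeing the data. Same-numbered libraries deviated together: all 18 pairs of groups and numbers had a correlation of deviations of 0.193 to 0.695, above the 0.1 asked, so the numbers were taken to pair the libraries.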

Additional observations from a re-analysis of the deposited data

How the results depend on the processing

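The number of the 8 genes called moved by more than 1.5 times in 3 of the 5 contrasts. For TNFα in control cells it was 2 and became 4 with replicates 2 and 3 only, and 1 to 3 without single libraries. Of all genes, 1.90% were called higher and 0.726% lower in the main fit, and 13.8% with replicates 2 and 3 only. Without single libraries, 149 of 16443 to 709 of 16380 genes were called. For TNFα in knock-down cells it was 0 and became 1 with the replicate block, 1 with DESeq2, 2 with replicates 2 and 3 only, and 0 to 1 without single libraries. The shares of all genes were 1.54% higher and 0.254% lower in the main fit, and 5.55% and 2.13% with the block. They were 3.92% with DESeq2 and 8.43% with replicates 2 and 3 only. Without single libraries, 127 of 16426 to 357 of 16380 genes were called. For the knock-down without TNFα it was 1 and became 3 with the block and 0 with only the 2 groups compared. Here 3.13% of all genes were called higher and 1.86% lower in the main fit, and 9.17% and 7.31% with the block. With only the 2 groups compared, 332 of 15456 genes were called. The number of all genes called thus moved with the setting too. Besides the calls given above, the block changed no other call of the 8 genes. The cause of these moves was not tested. Leaving out libraries also leaves fewer samples, and the number moved both up and down in such settings.

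Signs turned only for log2 fold changes that were not called. MTHFD1L under TNFα in knock-down cells was 0.00248 and became -0.00502 with DESeq2 size factors, -0.000822 without a filter, -0.00271 with the stricter filter, -0.0274 with replicates 2 and 3 only, -0.0157 with only the 2 groups and -0.00388 with DESeq2. With replicates 2 and 3 only, MTHFD1 in the knock-down became 0.00124 without and 0.0589 with TNFα, and the SHMT1 interaction became -0.00411. Without single libraries, the ranges under TNFα in knock-down cells were -0.0590 to 0.11 for PSPH, -0.22 to 0.0651 for MTHFD2 and -0.14 to 0.11 for MTHFD1L. In the knock-down without TNFα they were -0.23 to 0.0535 for MTHFD1 and -0.17 to 0.0674 for MTHFD2. In the knock-down with TNFα they were -0.0338 to 0.0233 for SHMT2, -0.126 to 0.0402 for MTHFD1 and -0.00327 to 0.267 for MTHFD2. For the interaction they were -0.0507 to 0.0515 for SHMT1, -0.112 to 0.171 for MTHFD1 and -0.0597 to 0.185 for MTHFD1L.

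With replicates 2 and 3 only, the numbers called in the lists, in the same order of contrasts, were 6, 3, 1 and 6 for folate enzymes, 3, 1, 2 and 2 for glycine cleavage, 4, 2, 3 and 4 for the methionine cycle, 3, 2, 5 and 3 for serine use, 6, 1, 2 and 3 for purine synthesis, 1, 0, 2 and 4 for ATF4 targets, 1 in each for other regulators, and 10, 5, 1 and 2 for S phase, where 13.8%, 8.43%, 12.3% and 14.7% of all genes were called. Each of the 8 genes had at least 1798 counts (MTHFD1L) and at most 21693 (PSAT1) in a library.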
